A study of Mus musculus with 10 samples.

Results

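Lmna, Lmnb1, Lmnb2, Emd, Tmpo, Syne1, Syne2, Sun1, Sun2 and Tmem43 encode proteins of the nuclear envelope, most of them linked to inherited heart or muscle disease. They were taken as a given list, by gene symbol, and all 10 were found among the 23337 genes counted in the left ventricle (LV) and skeletal muscle (SkM) of mice. The study deleted E0, an element in the first intron of the sarcomere gene Ttn, by CRISPR, and used hybrid mice, whose Ttn alleles can be told apart by strain, to learn whether E0 acts on the allele it lies on. The 5 mice were hybrids from a cross of C57BL/6 E0del/+ with 129SvEv WT animals, aged 17 weeks, of both sexes. Of these, 2 were WT and 3 were E0del/+, which carry the deletion in every cell, and each gave 1 LV and 1 SkM library of poly(A) RNA. Libraries are named by genotype, tissue and mouse, such as WT LV 2, and the batch number in the labels equals the mouse number within a genotype. Total counts were between 11010021 and 17484873 per library. Ttn itself read 7959 and 9344 CPM (counts scaled to the library total) in the WT LVs and 7737, 5560 and 6597 CPM in the E0del/+ LVs. The 9344 CPM is from WT LV 2, which also held skeletal muscle fibre transcripts, and their part in this value was not tested. In SkM the genotypes overlapped, at 24204.5 and 15855.6 CPM in WT and 20091.7, 18854.1 and 13585.4 CPM in E0del/+. The deletion lies in an intron, so gene counts did not show it directly.

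The tissue labels were compared with marker genes before the nuclear envelope genes were read. All 9 ventricular cardiomyocyte markers were higher in LV, with a summed level of 68438 to 99419 CPM in LV and 188 to 2217 CPM in SkM, where Actc1 was the most abundant of them and Nkx2-5 was at 0 in WT SkM 1, WT SkM 2, E0del/+ SkM 2 and E0del/+ SkM 3. Nkx2-5 had enough counts for a test only through LV, so its call is no test of a difference. All 9 skeletal muscle fibre markers, led by Myh4, were higher in SkM, at 160099 to 172420 CPM summed. They stood at 158 to 181 CPM in LV libraries other than WT LV 2, which held 39724 CPM. That library also carried transcripts of satellite cells (11.2 CPM summed, against 0.0651 to 0.182 in the other LVs), of adipocytes (125 against 1.05 to 8.85 CPM) and of a group of stem cell and neural genes (299 against 7.42 to 14.4 CPM). In it Lin28a read 57.5 CPM, Sox2 22.1 CPM and Tubb3 63.3 CPM, and proliferating cell markers summed to 28.5 CPM, against 10.6 to 18.2 CPM in the other LVs.

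WT SkM 1 and E0del/+ SkM 1, the SkM libraries of batch 1, stood apart as well. Lymphocyte markers summed to 54.0 and 119 CPM there, and to 4.29 to 7.66 CPM in the other SkM libraries. WT SkM 1 also read 21.6 CPM of Y-linked genes beside 397 CPM of Xist. E0del/+ LV 2 had the highest endothelial level of any library, 2645 CPM summed against 1287 to 1845 CPM in the other LVs.

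**Figure D1:**
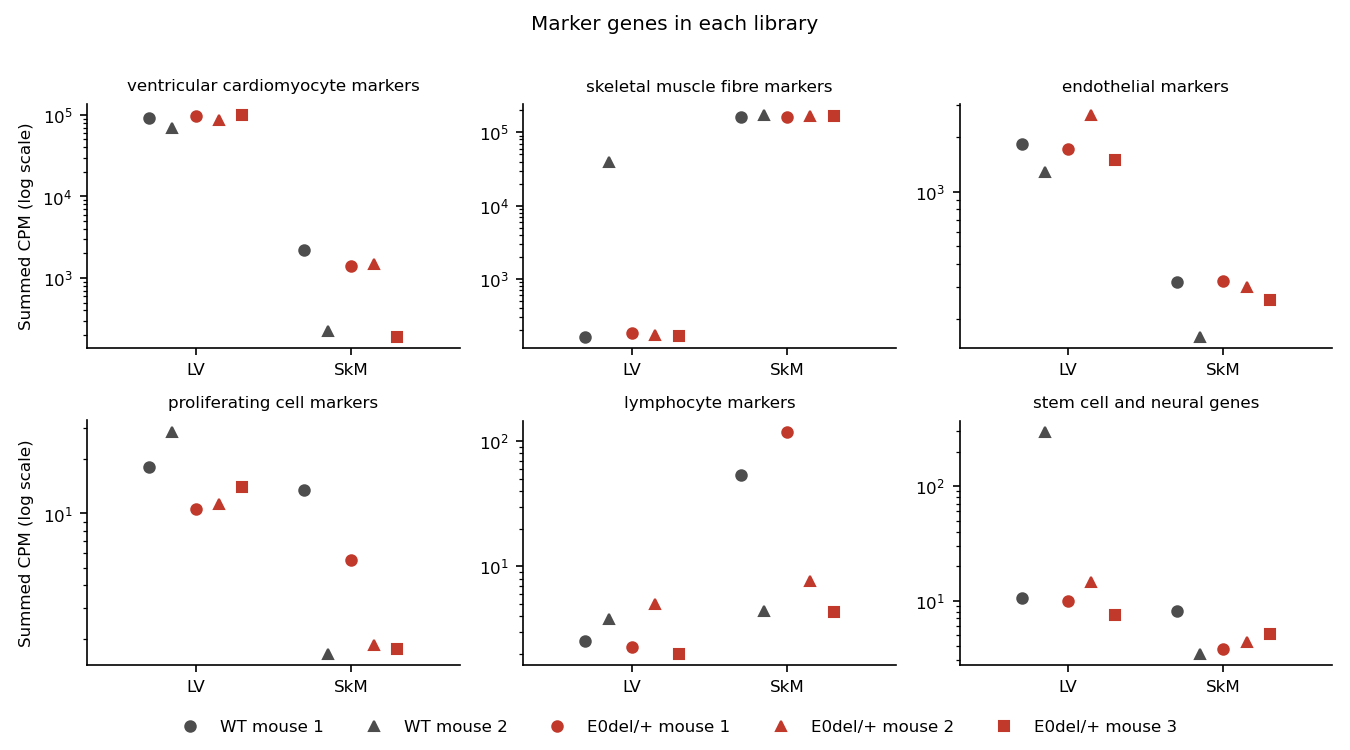
Summed CPM (log scale) of 6 groups of marker genes in each of the 10 libraries, with 1 point per library, LV on the left and SkM on the right of each panel. WT LV 2 stands at 39724 CPM of skeletal muscle fibre markers and 299 CPM of stem cell and neural genes, and the SkM libraries of mouse 1 of each genotype at 54.0 and 119 CPM of lymphocyte markers.

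Markers of cells other than muscle fibres differed between the tissues as well. Endothelial markers (9 of 9 tested, Cdh5 the most abundant), fibroblast markers (7 of 7) and macrophage and leukocyte markers (6 of 7) were higher in LV. Endothelial markers summed to 1287 to 2645 CPM in LV and 158 to 322 CPM in SkM. For fibroblast markers the ranges were 909 to 1709 CPM and 148 to 539 CPM, and for macrophage and leukocyte markers 136 to 237 CPM and 16.9 to 122 CPM. Vascular smooth muscle markers were higher in LV for 2 of 4 genes, blood cell markers for 2 of 2 and proliferating cell markers for 1 of 3, beside 32.1% of all genes tested. Satellite cell markers summed to 34.8 to 48.3 CPM in SkM and 0.0651 to 0.182 CPM in LVs other than WT LV 2. They passed the filter on low counts through SkM, so their calls, 3 of 3 higher in SkM, are no test of a difference. Schwann cell markers were higher in SkM for 2 of 5 genes and adipocyte markers for 0 of 5, beside 30.0% of all genes. Counts near those shares are no sign of a difference in a list. Endothelial markers kept 9 of 9 without the mouse WT 2, without batch 1 and with total counts. Schwann cell markers kept 2 of 5 higher in SkM, but with total counts 2 others were called higher in LV. Without WT 2, fibroblast markers were higher in LV for 6 of 7 genes, macrophage and leukocyte markers for 5 of 7, smooth muscle markers for 1 of 4 and blood cell markers for 0 of 2, while all 5 adipocyte markers were higher in SkM. Without batch 1 the counts higher in LV were 3 of 7, 3 of 7, 1 of 4 and 0 of 2, and proliferating cell markers were called higher in LV for 3 of 4. Outside batch 1, each proliferating cell marker read at most 0.733 CPM in SkM. They passed the filter through LV there, so these calls are no test of a difference. Of the adipocyte markers, Lep and Retn read at most 0.154 and 0.456 CPM in LVs other than WT LV 2. In E0del/+ LV 3, Adipoq read 0 CPM, and Plin1 and Cidec each read 0.436 CPM. Without WT 2, all 5 adipocyte markers too passed the filter through SkM, so their calls are no test of a difference.

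The nuclear lamina is a meshwork of A-type lamins, from Lmna, and B-type lamins, from Lmnb1 and Lmnb2, under the inner nuclear membrane. Emerin (Emd), LAP2 (Tmpo) and LUMA (Tmem43) are held in or at that membrane, and SUN proteins (Sun1, Sun2) span it to grip the tails of nesprins (Syne1, Syne2), which reach the cytoskeleton. The SUN and nesprin pairs form the LINC complex, which passes force to the nucleus, and mutations in A-type lamins, emerin and LUMA are known causes of cardiomyopathy.

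On mm10, the tables place Lmna at chr3:88481149-88503332 (minus strand), Lmnb2 at chr10:80901363-80918245 (minus), Emd at chrX:74254839-74257747 (plus), Tmpo at chr10:91147571-91171582 (minus) and Tmem43 at chr6:91473751-91488458 (plus). Syne1 lies at chr10:5020196-5550692 (minus), Syne2 at chr12:75818318-76110928 (plus), Sun1 at chr5:139200637-139249839 (plus) and Sun2 at chr15:79724068-79742536 (minus). Lmnb1 is on the plus strand at chr18:56707813-56753424. For Syne1 the tables count 88 exons over 18111 bp, whereas its GENCODE transcript Syne1-205 has 146 exons over 27908 bp, so reads from 58 exons of the giant nesprin were not in its count. The libraries keep no strand, and 136 bp of Sun2 exons overlap the antisense gene Gm16575 while 244 bp of Tmpo exons overlap the lincRNA Gm26765. Reads from those stretches could not be told apart.

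Levels of the 10 genes were compared with each other only as RPKM, which divides by exon length. In the marker lists the most abundant gene was read from CPM, without that division. In LV, Sun2 was the most abundant of the 10, at 52.1 ± 5.68 RPKM (SD, n = 5), followed by Lmna at 35.4 ± 5.55, Sun1 at 24.9 ± 1.91 and Emd at 18.6 ± 3.23. Tmpo was divided by 8127 bp of exons, whereas its GENCODE transcript Tmpo-202 has 3533 bp, so its place among the genes depends on that length. The lower end of the LV order was Syne1 (12.5), Tmem43 (10.6), Tmpo (5.82), Syne2 (4.88), Lmnb2 (4.21) and Lmnb1 (3.15 RPKM). Neighbours in this order overlapped between libraries except Lmna and Sun1, Sun1 and Emd, and Tmem43 and Tmpo. In SkM, Sun2 again led, at 75.1 ± 6.50 RPKM (n = 5), ahead of Sun1 (19.7), Lmna (16.9), Emd (13.5), Tmem43 (11.6), Syne1 (7.62), Tmpo (5.07), Lmnb1 (3.53), Lmnb2 (1.91) and Syne2 (1.33 RPKM). There, the overlapping neighbours were Sun1 with Lmna and Emd with Tmem43. Among all genes, 1112 had a higher mean RPKM than Sun2 in LV and 586 in SkM.

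**Figure D2:**
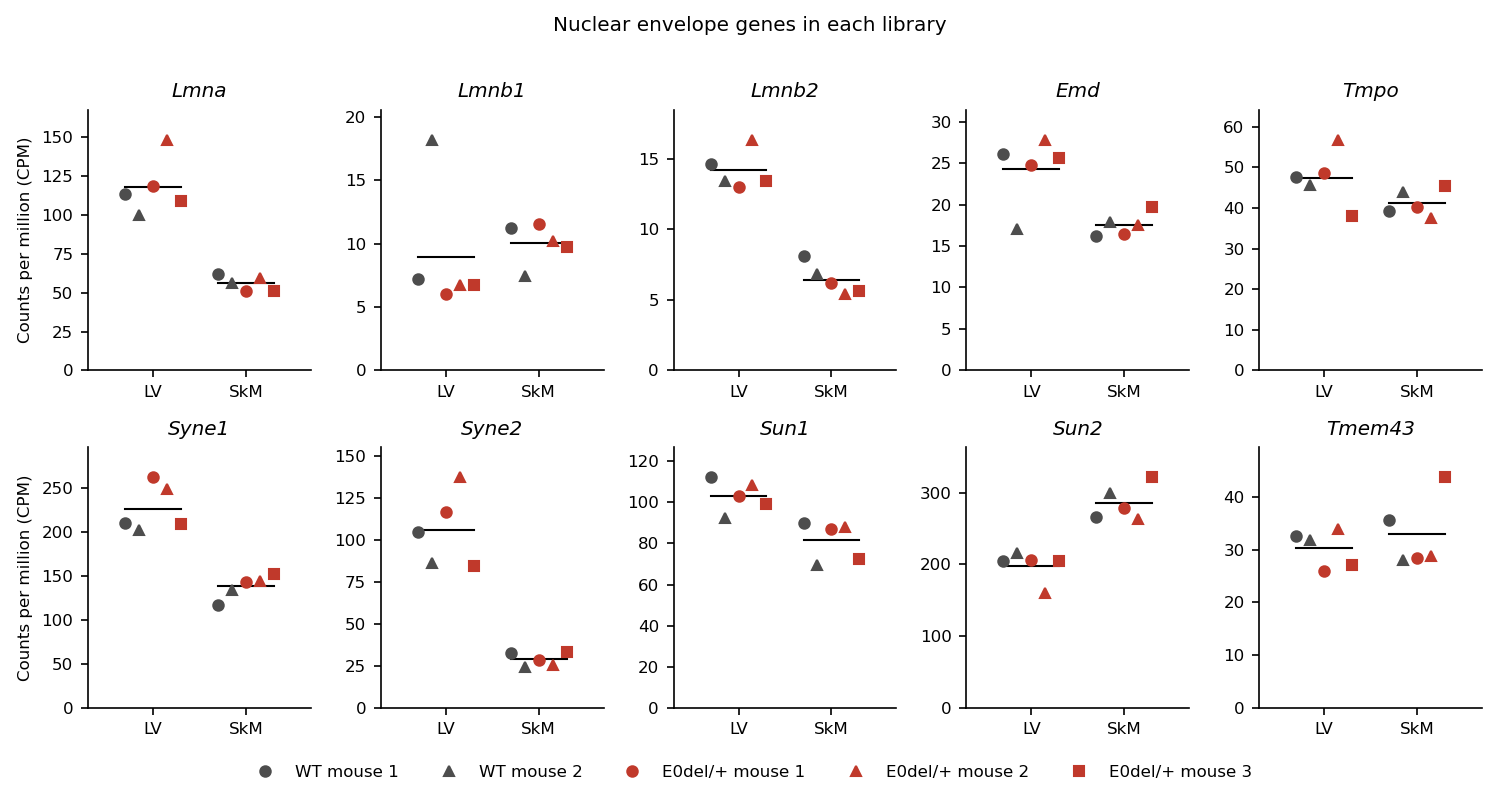
CPM by total counts of each nuclear envelope gene in each library, with 1 point per library, a line at the mean of 5 libraries, and axes that start at 0. Syne2 lies at 84.8 to 138 CPM in LV and 24.4 to 33.2 CPM in SkM, and Lmnb1 in WT LV 2 lies at 18.2 CPM, above every other library.

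LV was then compared with SkM within mice, by a test across all genes. At an adjusted p under 0.05, Lmna, Lmnb2 and Syne2 were higher in LV, whereas Lmnb1, Tmpo, Sun1, Sun2 and Tmem43 were higher in SkM, of which Sun1 was called higher in LV, and Tmpo changed sign without a call (adjusted p = 0.218), when libraries were scaled by total counts. Of the 10 genes, 8 therefore differed, as did 62.1% of the 13283 genes tested. The 3 higher in LV stand beside 32.1% of all genes, and the 5 higher in SkM beside 30.0%. At least 2-fold differences were called for 2 members, Syne2 and Sun2, and for 34.6% of all genes. Counts so near those of all genes are not a result about the members as a group. The members' median log2 fold change was -0.27, and that of all genes was 0.02.

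The direction of small differences depended on how the libraries were scaled. In SkM 27.2% to 29.5% of counts fell on the top 10 genes, in LV 12.5% to 14.5%, and the trimmed mean of M values (TMM) set mean factors of 1.26 for LV and 0.797 for SkM. Scaling by total counts moved the median of all genes by 0.66 on the log2 scale, changed the sign for 3610 of 13283 genes, and turned Emd (0.45), Tmpo (0.19) and Sun1 (0.34) to higher in LV. With total counts, 6 members were called higher in LV and 1 in SkM, and all genes called split into 7882 and 1591, against 4269 and 3986 with TMM. Relative to the median of all genes the scalings gave values that differed by at most 0.01 on the log2 scale, from -1.21 for Sun2 through -0.23 for Emd and 0.03 for Syne1 to 1.18 for Syne2. Levels below are CPM by total counts, and fold changes use TMM.

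**Figure D3:**
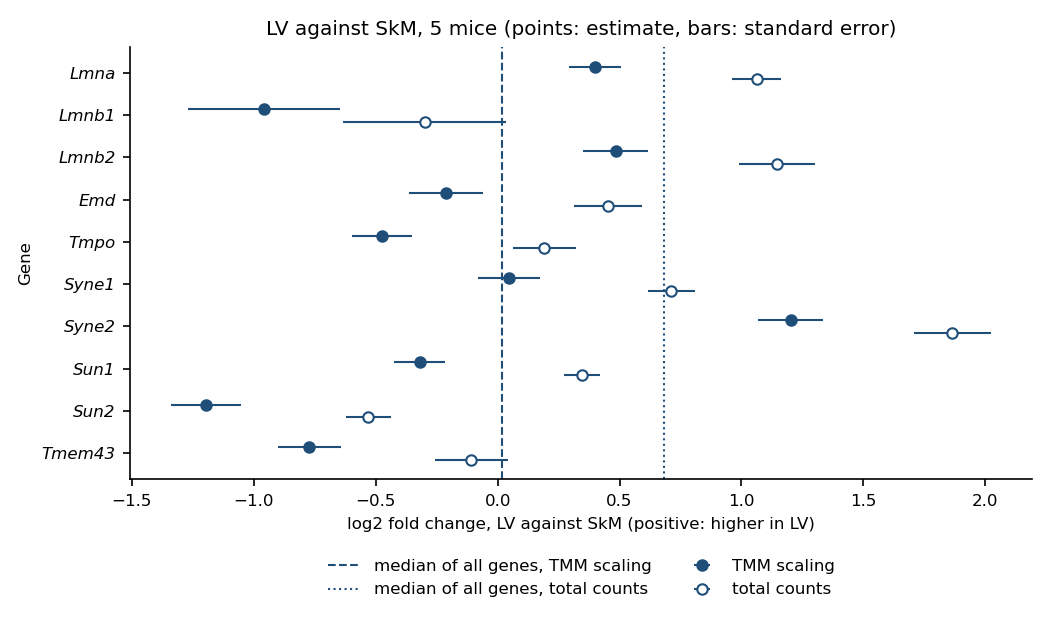
log2 fold change of LV against SkM (points) with its standard error (bars) for each gene, over 5 mice, with TMM scaling (filled) and total counts (open); vertical lines mark the median of all genes under each scaling. Syne2 (1.20) and Sun2 (-1.19 with TMM, -0.53 with total counts) keep their sides, and Emd, Tmpo and Sun1 change sign with total counts.

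Among the lamins, Lmna read 113, 99.8, 119, 148 and 109 CPM in the LVs of WT 1, WT 2 and E0del/+ 1 to 3, and 62.1, 56.0, 51.2, 59.7 and 51.4 CPM in their SkM. The lowest LV lay above the highest SkM, and the ratio of LV to SkM was 1.78 to 2.49 in the 5 mice. The means were 118 ± 18.5 and 56.1 ± 4.89 CPM (SD, n = 5). Lmna was 1.32-fold higher in LV after TMM (log2 fold change 0.40, standard error 0.11, adjusted p = 0.0120, higher in 5 of 5 mice). Without E0del/+ 1 the difference was 0.33 and no longer passed the test (adjusted p = 0.0600), and without both mice of batch 1 it was 0.33 (adjusted p = 0.159).

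Lmnb2, which encodes a B-type lamin, read 14.7, 13.4, 13.0, 16.3 and 13.4 CPM in LV and 8.13, 6.81, 6.21, 5.40 and 5.63 CPM in SkM, in the same order of mice. Again the tissues did not overlap. The gene was 1.40-fold higher in LV (log2 fold change 0.48, standard error 0.13, adjusted p = 0.0143, higher in 5 of 5 mice). The call was lost without E0del/+ 3 (0.43, adjusted p = 0.0575) and without batch 1 (0.53, adjusted p = 0.100).

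Lmnb1, the other B-type lamin, differed in the opposite direction, and 1 library stood out. In LV it read 7.22, 18.2, 5.99, 6.72 and 6.72 CPM, and in SkM 11.2, 7.44, 11.6, 10.2 and 9.71 CPM. WT LV 2, at 18.2 CPM (95% Wilson interval 15.8 to 20.9), lay above the highest SkM library (11.6 CPM), while the other 4 LVs lay below the SkM of their own mouse. Lmnb1 was 1.94-fold higher in SkM (log2 fold change -0.96, standard error 0.31, adjusted p = 0.0285, higher in SkM in 4 of 5 mice). Leaving out WT 2 gave -1.33 (standard error 0.16, adjusted p = 0.000245). Leaving out any other mouse ended the call, with -0.91 without WT 1 (adjusted p = 0.0772), -0.81 without E0del/+ 1 (0.0908), -0.79 without E0del/+ 2 (0.121) and -0.92 without E0del/+ 3 (0.0680). With total counts the difference was -0.30 (adjusted p = 0.441).

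Within each tissue, the libraries with the highest Lmnb1 also stood apart in markers of other cells. WT LV 2 had the highest sums of proliferating cell markers (28.5 CPM) and of stem cell and neural genes (299 CPM), and WT SkM 1 and E0del/+ SkM 1, with the highest Lmnb1 in SkM, had the highest sums of lymphocyte markers (54.0 and 119 CPM). In SkM, proliferating cell markers were 13.5 and 5.54 CPM in those 2 libraries and 1.66 to 1.87 CPM in the rest. Not every marker of that list followed: in WT LV 2 the sum was led by Top2a (13.5 CPM), and Mki67 (4.59 CPM), Cdk1 (0.450) and Birc5 (0.180) were the lowest of the LVs. Between the tissues, 3 of the 7 genes of the list were tested and 1 was called, higher in LV. Leaving out both mice of batch 1 gave -0.70 (adjusted p = 0.242) for Lmnb1, and leaving out WT 2 moved it the other way, to -1.33. The part of these markers in the result was not tested. In bulk tissue, fewer cells of a type and less RNA per cell cannot be told apart.

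At the inner nuclear membrane, Tmem43 read 32.5, 31.8, 26.0, 33.9 and 27.0 CPM in LV and 35.6, 28.0, 28.5, 28.7 and 43.8 CPM in SkM. These levels overlapped, and E0del/+ SkM 3 was the highest, followed by WT SkM 1. Of the SkM libraries, these also had the highest sums of adipocyte markers (523 and 328 CPM) and fibroblast markers (539 and 494 CPM). The part of these markers in the result was not tested. After TMM, LUMA transcripts were 1.71-fold higher in SkM (log2 fold change -0.77, standard error 0.13, adjusted p = 0.00133, higher in SkM in 5 of 5 mice). By total counts the difference was -0.11 (adjusted p = 0.537), with 3 of 5 mice higher in SkM.

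Tmpo, which encodes the LAP2 proteins that bind lamins and chromatin, read 47.6, 45.5, 48.6, 56.8 and 38.1 CPM in LV and 39.2, 43.9, 40.1, 37.6 and 45.3 CPM in SkM. E0del/+ 3 was the mouse with the higher level in SkM on this scale. Relative to other genes, Tmpo was 1.39-fold higher in SkM (log2 fold change -0.47, standard error 0.12, adjusted p = 0.0109, 5 of 5 mice), a direction that turned with total counts (0.19).

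Emd read 26.1, 17.01, 24.8, 27.8 and 25.6 CPM in LV and 16.2, 17.9, 16.4, 17.6 and 19.7 CPM in SkM. WT LV 2 (17.01 CPM, Wilson interval 14.7 to 19.6) fell within the SkM range, and the other 4 LVs averaged 26.1 ± 1.26 CPM (SD, n = 4). Emd did not pass the test (log2 fold change -0.21, standard error 0.15, adjusted p = 0.256), and its sign turned with total counts (0.45, adjusted p = 0.0224). It was -0.07 without WT 2 (adjusted p = 0.643) and -0.43 without batch 1 (adjusted p = 0.116). The 39724 CPM of skeletal muscle fibre markers in WT LV 2 stand beside its low Emd, and their part in the result was not tested.

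In the LINC complex, Syne2 and Sun2 had the largest differences of the 10 genes with TMM and all 5 mice, in opposite directions. Without WT 2, Lmnb1 (-1.33) exceeded both, and with total counts Lmnb2 (1.15), Lmna (1.06) and Syne1 (0.71) exceeded Sun2 (-0.53). Syne2, which encodes nesprin-2, read 105, 86.0, 117, 138 and 84.8 CPM in LV and 32.8, 24.4, 28.6, 25.3 and 33.2 CPM in SkM. Every LV was well above every SkM, with ratios of 3.21, 3.53, 4.08, 5.45 and 2.55 within mice. The gene was 2.30-fold higher in LV after TMM (log2 fold change 1.20, standard error 0.13, adjusted p = 0.000159).

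Sun2 read 204, 216, 207, 160 and 205 CPM in LV and 266, 300, 279, 263 and 322 CPM in SkM. E0del/+ LV 2 was the lowest, and the tissues did not overlap. Sun2 was 2.29-fold higher in SkM (log2 fold change -1.19, standard error 0.14, adjusted p = 0.000233, higher in SkM in 5 of 5 mice). Both genes kept their call and direction under each alternative tried, with a log2 range of 1.12 to 1.86 for Syne2 and -1.36 to -0.53 for Sun2.

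Sun1 read 112, 92.2, 103, 109 and 99.0 CPM in LV and 90.1, 69.6, 87.2, 87.9 and 72.5 CPM in SkM. By CPM each LV was higher than each SkM, yet relative to other genes Sun1 was 1.25-fold higher in SkM (log2 fold change -0.32, standard error 0.10, adjusted p = 0.0286), and total counts turned the sign (0.34). The call was lost without WT 1 (-0.35, adjusted p = 0.0544), E0del/+ 1 (-0.32, 0.0841), E0del/+ 2 (-0.22, 0.0513) or batch 1 (-0.36, 0.140), and with no filter on low counts (-0.27, 0.0775).

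Syne1, which encodes nesprin-1, read 210, 202, 262, 249 and 208 CPM in LV and 116, 133, 143, 145 and 152 CPM in SkM. All LVs lay above all SkM libraries on this scale. Relative to other genes, Syne1 did not pass the test (log2 fold change 0.05, standard error 0.13, adjusted p = 0.765), while with total counts it was called higher in LV (0.71, adjusted p = 0.000524). Its sign turned without E0del/+ 1 (-0.02), without WT 1 (-0.03) and without batch 1 (-0.14).

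In CPM by total counts, LV and SkM did not overlap for 6 of the 10 genes (Lmna, Lmnb2, Syne1, Syne2, Sun1, Sun2), as for 62.3% of all genes tested. In CPM with TMM they did not overlap for 7, with Tmpo and Tmem43 in and Syne1 out, as for 52.6% of all genes. Endothelial, fibroblast and macrophage markers were also higher in LV, and their part in the tissue differences of Lmna, Lmnb2 and Syne2 was not tested. E0del/+ LV 2, with the highest endothelial level, also had the highest Lmna, Lmnb2, Emd, Tmpo, Syne2 and Tmem43 of the LVs and the lowest Sun2 in CPM by total counts. Its TMM factor was the highest as well (1.41, against 1.17 to 1.28 in the other LVs), and with TMM its Emd and Tmem43 were not the highest.

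Promoters are shown for Lmna, Lmnb2 and Syne2, the 3 genes called higher in LV, and for Sun2, which had the largest difference toward SkM with all 5 mice (without WT 2, Lmnb1 exceeded it). RefSeq promoters, on GRCm38.p6, were found for 9 of the 10 genes with 15 start sites. Each run below is the 250 bases before a start site, 5′ to 3′ on the gene's strand, for Lmna (chr3:88503353-88503602, minus), Lmnb2 (chr10:80918246-80918495, minus), Syne2 (chr12:75818068-75818317, plus) and Sun2 (chr15:79742537-79742786, minus). Capitals mark matches on either strand to the GC box (written GGGCGG on the strand searched), to the CCAAT box and to the E-box (of the form CANNTG where N is any base), and matches that touch or overlap run together.
Lmna promoter: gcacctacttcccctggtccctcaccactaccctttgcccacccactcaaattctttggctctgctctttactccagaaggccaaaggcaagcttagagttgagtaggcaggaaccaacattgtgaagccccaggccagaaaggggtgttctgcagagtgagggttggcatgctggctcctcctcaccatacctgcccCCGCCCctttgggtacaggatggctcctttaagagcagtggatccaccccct
Lmnb2 promoter: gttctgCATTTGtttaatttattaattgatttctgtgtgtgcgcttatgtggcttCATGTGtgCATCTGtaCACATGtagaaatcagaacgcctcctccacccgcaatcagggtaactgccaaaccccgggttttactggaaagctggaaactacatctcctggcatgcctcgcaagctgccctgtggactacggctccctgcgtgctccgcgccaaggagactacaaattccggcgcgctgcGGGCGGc
Syne2 promoter: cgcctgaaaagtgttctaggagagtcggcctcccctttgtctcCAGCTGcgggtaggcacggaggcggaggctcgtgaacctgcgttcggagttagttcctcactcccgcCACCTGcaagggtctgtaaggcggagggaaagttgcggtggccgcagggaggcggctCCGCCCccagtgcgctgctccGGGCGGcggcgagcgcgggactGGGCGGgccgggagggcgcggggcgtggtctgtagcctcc
Sun2 promoter: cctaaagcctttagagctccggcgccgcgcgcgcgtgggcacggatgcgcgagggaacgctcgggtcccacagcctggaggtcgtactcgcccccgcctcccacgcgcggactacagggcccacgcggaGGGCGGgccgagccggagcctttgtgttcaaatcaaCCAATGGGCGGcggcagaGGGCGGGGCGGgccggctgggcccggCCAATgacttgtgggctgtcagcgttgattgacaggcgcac
The Lmna window held 1 GC box, the Lmnb2 window 1 GC box and 4 E-boxes, the Syne2 window 3 GC boxes and 2 E-boxes, and the Sun2 window 4 GC boxes and 2 CCAAT boxes. The TATA box and the MEF2 type site, which were also searched, had 0 matches in these windows. Further start sites of Lmna and Lmnb2 are not shown, and their windows held 1 CCAAT box for Lmna and 1 E-box and 1 MEF2 type site for Lmnb2. Of 32851 promoter windows of this length, 32.7% held a GC box, 33.8% a CCAAT box, 66.2% an E-box, 12.4% a TATA box and 3.20% a MEF2 type site. These matches describe the letters only.

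Ratios between members of a family do not depend on how libraries are scaled. The RPKM ratio of Syne1 to Syne2 was 2.40, 2.82, 2.69, 2.17 and 2.95 in LV and 4.26, 6.56, 6.01, 6.86 and 5.50 in SkM, so that Syne1 outweighed Syne2 more in SkM in each mouse. The Syne1 count left out 58 exons of Syne1-205, so this ratio holds for the counted exons only. The mean log2 difference of LV from SkM was -1.15 ± 0.33 (SD, n = 5 mice, exact two-sided sign-flip p = 0.0625, 0.0938 adjusted over 3 ratios). The ratio of Sun1 to Sun2 was 0.507, 0.394, 0.461, 0.623 and 0.446 in LV and 0.312, 0.214, 0.288, 0.308 and 0.208 in SkM. This ratio was higher in LV in 5 of 5 mice, by 0.88 ± 0.19 on the log2 scale (exact p = 0.0625, adjusted 0.0938). Sign flips within 5 mice cannot give a two-sided p under 0.0625.

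The ratio of Lmna to the sum of Lmnb1 and Lmnb2 was 4.95, 2.89, 5.98, 6.18 and 5.15 in LV and 2.93, 3.63, 2.60, 3.46 and 3.04 in SkM. It was higher in LV in 4 mice and lower in WT 2, with a mean log2 difference of 0.65 ± 0.57 (SD, n = 5, exact p = 0.125, adjusted 0.125), or 0.89 without WT 2. When the pairing by mouse was left out, exact permutation of the tissue labels over the 10 libraries gave adjusted p-values of 0.0397 for the lamin ratio and 0.0119 for the nesprin and SUN ratios. That permutation treats the libraries of a mouse as independent.

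**Figure D4:**
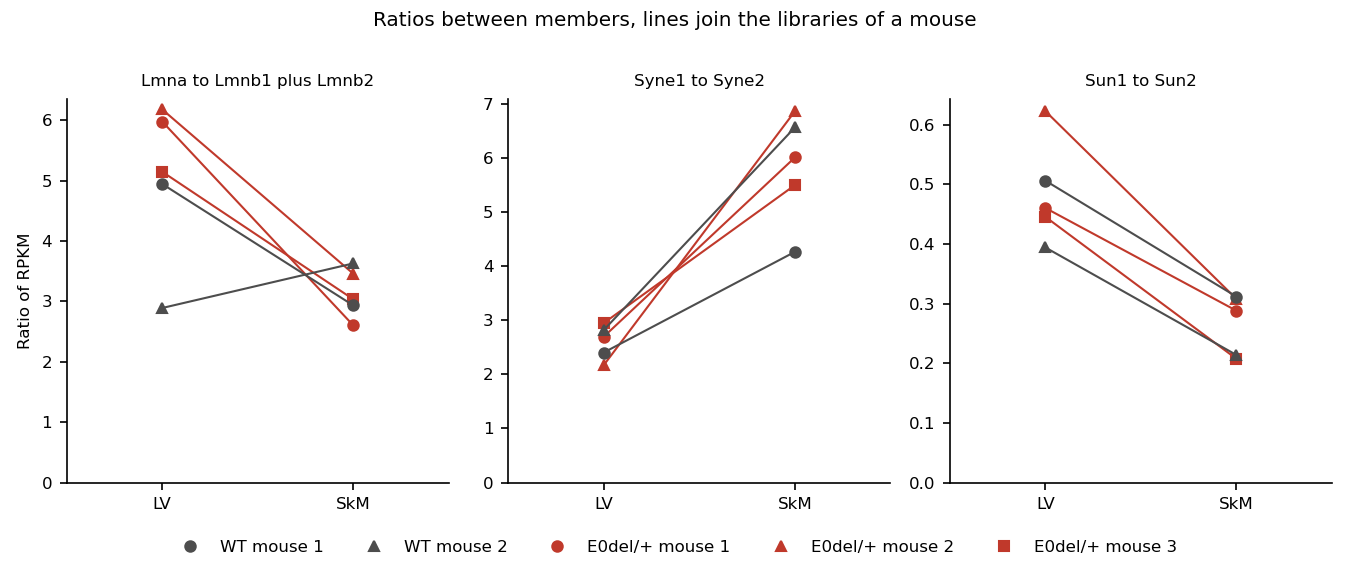
RPKM ratios of Lmna to Lmnb1 plus Lmnb2, Syne1 to Syne2 and Sun1 to Sun2 in each library, with axes that start at 0 and lines that join LV and SkM of a mouse. The lines run the same way in 5 of 5 mice for nesprins (2.17 to 2.95 in LV, 4.26 to 6.86 in SkM) and SUN genes, and WT mouse 2 runs the other way for lamins.

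Genotype was compared within each tissue. In LV, 0 of the 10 genes passed the edgeR test, nor did any of the 13420 genes tested (0.0%). At an unadjusted p under 0.05 the count was 564 genes, 4.2% of those tested, with 1 member, Lmnb1. DESeq2 called 12 genes and the batch block 5, none of them a member. DESeq2's own filter on low means gave no adjusted p to 7 members (Lmnb1, Lmnb2, Emd, Tmpo, Syne2, Sun1 and Tmem43), so they could not be called by it in LV, and only Lmna, Syne1 and Sun2 were open to a call. The 12 were Actn3, Atp2a1, Myh4, Mylpf, Myoz1, Pvalb, Ryr1, Tnnc2, Tnni2, Tnnt3, Ptgds and Tubb5, and the 5 were Ddx3y, Eif2s3y, Kdm5d, Uty and Mstn, all chosen after their values were seen. Of the 12, Ptgds was higher in E0del/+ and 11 were lower, 10 of them muscle genes at -7.16 to -6.65 on the log2 scale. Myh4, for example, read 18473 CPM in WT LV 2 and 70.3 to 81.7 CPM in the other LVs. Of the 5, 4 are Y-linked. Y-linked genes summed to 222 and 211 CPM in WT LV 2 and E0del/+ LV 3 and to 0.461 to 3.27 CPM in the other LVs, so batch 2 set a WT mouse with Y-linked transcripts against an E0del/+ mouse nearly without. The part of WT LV 2 and of sex in these calls was not tested.

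Lmnb1 in LV was 7.22 and 18.2 CPM in WT and 5.99, 6.72 and 6.72 CPM in E0del/+. In CPM by total counts the groups did not overlap for this member alone, as for 15.4% of all genes. The gap to WT LV 1 was small: its Wilson interval, 5.90 to 8.83 CPM, covered each of the E0del/+ values. With the TMM factors of WT LV 1 (1.02) and E0del/+ LV 3 (0.948), Lmnb1 was slightly higher in E0del/+ LV 3, so the groups overlapped. E0del/+ stood at -1.06 on the log2 scale (standard error 0.39, unadjusted p = 0.0250, adjusted p = 0.997, edgeR). Without WT LV 2 it was -0.15, and without WT LV 1, when WT LV 2 was the lone WT library, it was -1.62 in a fit that called Lmnb1 among 578 genes. In that fit the spread came from the E0del/+ libraries only, so its calls give no measure of variation between WT mice. Within batches, E0del/+ was 0.830 times WT in batch 1 and 0.370 times in batch 2, and batch 3 had no WT mouse. WT LV 2 is the library with the stem cell, neural and skeletal muscle transcripts, and their part in the result was not tested.

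The other members did not pass the test in LV. Emd averaged 26.1 ± 1.54 CPM in E0del/+ (SD, n = 3) and read 26.1 and 17.01 CPM in WT, a log2 fold change of 0.22 that was 0.00 without WT LV 2 and 0.49 without WT LV 1. Lmna was 125 ± 20.6 CPM in E0del/+ and 107 ± 9.65 CPM in WT (n = 2), with a log2 fold change of 0.16 (standard error 0.16). For Syne1 and Syne2 the values were 0.15 and 0.17, for Sun2 and Tmem43 -0.20 and -0.22, and Lmnb2, Tmpo and Sun1 lay between -0.05 and -0.04, with adjusted p = 0.997 for each. Sun2 was -0.03 without E0del/+ LV 2 and -0.32 with the batch block. Syne1 was 1.25 times WT in batch 1 and 1.23 times in batch 2, whereas the batches differed for Emd (0.9497 and 1.63 times), Syne2 (1.11 and 1.60), Lmna (1.05 and 1.49), Sun2 (1.01 and 0.745) and Tmem43 (0.799 and 1.07).

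In SkM, 0 of the 10 genes and 0 of the 13154 genes tested (0.0%) passed the edgeR test. An unadjusted p under 0.05 was reached by 114 genes (0.867%) and by 0 members. This count was not stable. It was 16 without E0del/+ SkM 2, 291 without E0del/+ SkM 3 and 596 with the batch block, with 0 members in each. DESeq2 called 0 genes, and the batch block called 1, the Y-linked Eif2s3y, also chosen after its value was seen.

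In CPM by total counts, the genotypes did not overlap in SkM for 2 of the 10 genes, as for 11.4% of all genes. Lmnb2 read 8.13 and 6.81 CPM in WT and 6.21, 5.40 and 5.63 CPM in E0del/+ (log2 fold change -0.37, standard error 0.21, adjusted p = 1.000). Each E0del/+ library was below both WT libraries, by 0.764 times in batch 1 and 0.793 times in batch 2. Syne1 read 116 and 133 CPM in WT and 143, 145 and 152 CPM in E0del/+, at 1.23 and 1.08 times WT in batches 1 and 2. With the TMM factors of WT SkM 2 (0.918) and E0del/+ SkM 1 (1.05), Syne1 was higher in WT SkM 2, so the genotypes overlapped. For Syne1 the log2 fold change of 0.22 (adjusted p = 1.000, standard error 0.17) became 0.47 without WT SkM 2 and 0.02 without WT SkM 1. Neither difference passed the test, and the other 8 members ranged from -0.12 (Lmna) to 0.19 (Lmnb1).

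**Figure D5:**
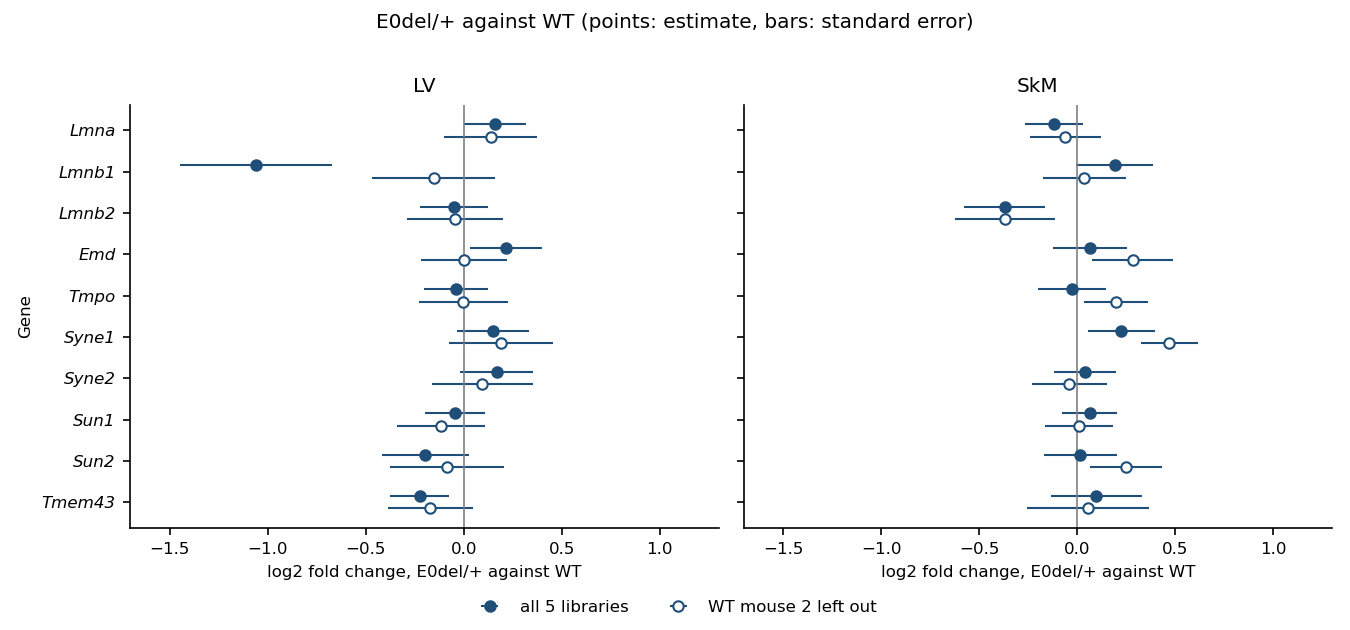
log2 fold change of E0del/+ against WT (points) with its standard error (bars) for each gene in LV and in SkM, with all 5 libraries of the tissue (filled) and with WT mouse 2 left out (open). When WT mouse 2 is left out, Lmnb1 in LV moves from -1.06 to -0.15 and Syne1 in SkM from 0.22 to 0.47. With all 5 libraries, 0 genes passed the adjusted test in either tissue (unadjusted p under 0.05: 1 member in LV, 0 in SkM).

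Whether the genotype difference itself differed between the tissues was tested as an interaction. A positive value means a higher log2 fold change of E0del/+ against WT in SkM than in LV. None of the 10 genes and 0 of the 14327 genes tested (0.0%) passed, with 238 genes (1.66%) and 0 members at an unadjusted p under 0.05, and DESeq2 called 0. The largest member value was that of Lmnb1, 1.07 (standard error 0.54, unadjusted p = 0.0914), which was 0.27 without WT 2 and 1.95 without WT 1, in a fit that called 155 genes but not Lmnb1. The spread in that fit came from the E0del/+ mice only.

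By genotype, the lamin ratio in LV was 4.95 and 2.89 in WT and 5.15 to 6.18 in E0del/+, where the lower WT value is that of WT LV 2. The LV ratio of Syne1 to Syne2 was 2.40 and 2.82 in WT and 2.17 to 2.95 in E0del/+, and that of Sun1 to Sun2 was 0.507 and 0.394 in WT and 0.446 to 0.623 in E0del/+. The nesprin and SUN ratios thus overlapped between genotypes. An exact test of 2 mice against 3 cannot give a p under 0.1, and these are given as values.

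Other genes of the nuclear envelope were read from lists by role. Of 17 tested genes of the inner membrane and lamina, 3 were higher in LV and 11 in SkM, beside 32.1% and 30.0% of all genes, with a median log2 fold change of -0.53. With total counts 7 and 6 were called, with a median of 0.14, where the median of all genes was 0.68. Myorg (AI464131 in the tables), a glycosidase-like protein of the nuclear envelope, averaged 37.4 ± 15.2 CPM in LV and 203 ± 35.4 CPM in SkM (SD, n = 5), a log2 fold change of -3.17 (adjusted p = 5.05e-05). Fhl1, a LIM protein mutated in muscle disease, averaged 233 and 1272 CPM (-3.03, adjusted p = 0.000376). Plpp7 (Ppapdc3) averaged 54.4 and 187 CPM (-2.47, adjusted p = 7.02e-06). The most abundant of the list was Tmem38a, a potassium channel of the sarcoplasmic reticulum and nuclear membrane, at 292 RPKM in LV and 673 RPKM in SkM (-1.88, adjusted p = 9.86e-05). WT LV 2 was the highest LV for Myorg (64.3 CPM), Fhl1 (357), Plpp7 (76.7) and Tmem38a (771), beside its skeletal muscle fibre markers, and their part was not tested. Without WT 2, 2 and 11 genes of the list were called, and without batch 1, 1 and 7.

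Of 6 lamin processing genes, 3 were higher in SkM and 0 in LV, beside 30.0% and 32.1% of all genes, with a median of -0.46. Total counts gave 3 higher in LV and 1 in SkM and a median of 0.20, beside 0.68 for all genes. The 3 were Narf (-1.14, adjusted p = 0.000674), Fntb (-0.75, 0.000754) and Fnta (-0.63, 0.00176), of which the latter 2 encode the farnesyltransferase subunits that modify lamin tails. With total counts Fntb lost its call (-0.09) and Fnta changed sign (0.03). Narf was the most abundant, at 51.7 RPKM in LV and 71.8 RPKM in SkM.

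The nuclear pore list had 28 tested genes, of which 1 was higher in LV and 11 in SkM, beside 32.1% and 30.0% of all genes, with a median of -0.24. Total counts gave 14 and 3 and a median of 0.43, beside 0.68 for all genes, and 0 and 5 were called without batch 1. Nup210, a pore membrane glycoprotein known from muscle differentiation, differed most. It read 10.6, 32.6, 10.2, 12.9 and 10.6 CPM in LV and 76.4 to 97.1 CPM in SkM (log2 fold change -3.29, adjusted p = 3.91e-05), with WT LV 2 the highest LV. Nup133 (-1.17, adjusted p = 0.000101) and Nup153 (-1.13, 0.00110) followed. Sec13, the most abundant by RPKM (40.8 in LV, 32.4 in SkM), was at -0.33 (adjusted p = 0.0392), a call that was lost without WT 1 (-0.37), WT 2 (-0.25), E0del/+ 2 (-0.32), E0del/+ 3 (-0.30) or batch 1 (-0.48) and a sign that turned with total counts (0.33).

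Of 6 other LINC genes, 5 were in the tables and 2 were tested. Syne4 (AI428936), a nesprin of epithelia and inner ear, was called higher in SkM, as were 30.0% of all genes, at 0.436 to 2.82 CPM in LV and 0.915 to 5.04 CPM in SkM (log2 fold change -1.29, adjusted p = 0.0159). Levels this low rest on few counts, and the call was lost without WT 1 (-1.07), without batch 1 (-0.97) and with total counts (-0.64). Across the 4 lists, 0 genes passed the genotype tests in LV or SkM or the interaction test.

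Genes with the most similar profiles were ranked by Pearson's r of log2(CPM + 1) over the 10 libraries, among 13005 genes with a mean of at least 1 CPM. The libraries form 2 tissue groups, so that r mostly reads the tissue difference and is given as a description. Closest to Lmna were Pld1 (0.996), Zfp46 (0.995) and 2700029M09Rik (0.994). For Emd they were Dapk3 (0.980), AW549542 (0.963) and Zfp128 (0.963), and for Syne1 A430105I19Rik (0.979), Zfr2 (0.979) and Tsr2 (0.977). Pld1 averaged 17.1 CPM in LV and 4.33 CPM in SkM, and Dapk3 25.7 and 21.3 CPM.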

How the data were processed

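Gene counts of LV and SkM from 5 mice were analysed. Unscaled read counts of each gene were deposited, and so was RPKM, which divides them by summed exon length and library total. STAR, DESeq2 and mm10 are named in the submitters' processing notes. Counting software, annotation for counting and the muscle sampled for SkM are not given in the sources used here. The RPKM values were used for levels between genes and for ratios.

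CPM were computed by total counts. Tests were run in R 4.3.3 with edgeR 4.0.16 (TMM, filterByExpr, quasi-likelihood test, Benjamini-Hochberg over all genes tested, two-sided, threshold 0.05), with the mouse as a block for LV against SkM and for the interaction, and no block for genotype. Tables and exact permutation tests used Python 3.11.15, pandas 2.3.3, numpy 2.4.6 and scipy 1.17.1, and figures matplotlib 3.10.9. The tests across genes were tested on simulated data.

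Total counts were 11010021 to 17484873 per library. Wilson 95% intervals cover counting error only.

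The labels' batch number equals the mouse number within a genotype, so batches 1 and 2 each hold a mouse of either genotype, and the tissues of a mouse come from 1 animal. Deviations from group means correlated across genes at -0.10 to 0.09 between the tissues of a mouse, at 0.03 and -0.12 between the mice of a batch in LV, and at 0.52 and 0.31 in SkM. With the batch as a replicate block, 5 genes were called in LV and 1 in SkM.

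Alternatives were total counts, size factors of DESeq2 1.42.0 used in edgeR, the Wald test of DESeq2, no filter on low counts, the block added or removed, each mouse or library left out, and for ratios CPM and the median. Leaving out batch 1, and the lymphocyte and stem cell and neural lists, were chosen after seeing the data.

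The members and lists were chosen with earlier results of these data known. Named were all 10 genes, the 3 largest differences called and the most abundant gene of each list of other nuclear envelope genes, and the 3 genes most like Lmna, Emd and Syne1. Lmnb1 had no promoter entry. Protein sequences were not used here.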

Additional observations from a re-analysis of the deposited data

Results flagged for a closer look

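In groups of 5 libraries of a tissue, 52 were examined for a library far from the other 4, and 7 values were found. Chance flags about 1 in 20 groups if the groups are independent, which groups that share a library are not. Of the 7, 6 are from WT LV 2: Lmnb1 at 18.2 CPM and Emd at 17.01 CPM, and the summed CPM of skeletal muscle fibre markers (39724), adipocyte markers (125), satellite cell markers (11.2) and stem cell and neural genes (299). The stem cell and neural list was chosen because of WT LV 2, so its value restates that choice and the chance rate does not apply to it. The last is Sun2 in E0del/+ LV 2, at 160 CPM. What set these libraries apart was not tested.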

How the results depend on the processing

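The 52 results had 537 values under alternatives, of which 464 kept the direction and the call, or for a number of genes stayed within 1.5 times; a gene without an adjusted p from DESeq2 was counted as not called. With total counts, the LV against SkM log2 fold change reversed for Emd (0.45), Tmpo (0.19), Sun1 (0.34), Fnta (0.032) and Sec13 (0.33), and 6 members were called higher in LV and 1 in SkM. Without batch 1, Syne1 was -0.14, with 1 member called higher in LV and 3 in SkM. Leaving out each mouse gave 3 to 5 members higher in SkM, and Syne1 at -0.027 to 0.12.

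For E0del/+ against WT in LV, total counts reversed Lmnb2 (0.021), Tmpo (0.038) and Sun1 (0.018), and DESeq2 called 12 genes. With each library left out, 0 to 578 genes were called, Lmnb2 was -0.085 to 0.00078, Tmpo -0.11 to 0.057 and Sun1 -0.11 to 0.039. In SkM, they gave Emd -0.12 to 0.28, Tmpo -0.22 to 0.20, Syne2 -0.11 to 0.13, Sun1 -0.017 to 0.12, Sun2 -0.18 to 0.25 and Tmem43 -0.18 to 0.23. The interaction called 0 to 155 genes with each mouse left out.

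With the replicate block, 5 genes were called in LV and 1 in SkM, with Tmpo at 0.056 in LV and Emd -0.0031, Syne2 -0.072, Sun2 -0.062 and Tmem43 -0.14 in SkM. Without the pairing the ratios kept 0.65, -1.15 and 0.88 and passed the threshold, in a test that treats the libraries of a mouse as independent. With the pairing they did not pass it (sign flips within mice, adjusted p = 0.125, 0.0938 and 0.0938). For LV against SkM and for genotype, the block changed no call of the 10 genes. Among all genes, LV against SkM called 8255 with the mouse as a block and 8657 without it. The cause of these shifts was not tested. With 2 WT mice, counts of 74 to 202 for Lmnb1 and 80 to 200 for Lmnb2 limit what small differences can show.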
